A study of Rattus norvegicus with 36 samples.

Results

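The colon and the ileum of the same diabetic rats were compared across all genes, in 24 of the 36 RNA sequencing libraries of the series. Every library titled RD or LD entered, which gave 12 colon and 12 ileum libraries from 12 rats, and the 2 libraries of a rat were paired by its ID. All rats were male UCD-T2DM rats, an obese strain in which diabetes arises spontaneously from many genes, and they ate ordinary chow. No drug, surgery or engineered allele separated the groups. The 6 D1M rats (titled RD) were 168 to 172 days old and had been diabetic for 22 to 23 days, while the 6 D3M rats (titled LD) were 172 to 173 days old and had been diabetic for 88 to 116 days. Since age at sampling was nearly equal, the duration of diabetes and the age at its onset cannot be told apart between D1M and D3M. Prediabetic ND rats, 70 days old, were used only for a comparison at the end. The samples were pieces of the whole wall of the distal ileum and proximal colon of fasted rats, so fewer cells of a type and less RNA per cell cannot be told apart in any value given here.

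The distal ileum takes up bile acids and cobalamin, finishes the digestion of sugar, peptide and fat, and guards its crypts with Paneth cells. The proximal colon has no villi and normally no Paneth cells, and it recovers sodium, chloride, water, calcium and the short-chain fatty acids that bacteria make. Position along the gut is held by transcription factors, among them GATA, CDX and HNF4 proteins in the epithelium and Hox proteins mostly in the wall beneath it.

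Total counts ran from 12972593 to 21510043 in ileum (median 20160061.5) and from 10024041 to 18299050 in colon (median 14501987.5). Flow cells 1, 2 and 3 held 7, 1 and 4 of the ileum libraries and 2, 6 and 4 of the colon libraries, and the flow cell was a term of every model unless stated. All 13 measured ileal markers were higher in ileum with no overlap. Of 9 measured colon markers 7 were higher in colon with no overlap, and the other 2, the goblet cell proteins Clca1 and Fcgbp, were higher in ileum. Of the 14 colon markers listed, Muc2, Aqp8, Insl5, Fxyd4 and Hoxb13 had no tested value. The colon library of D1M rat K3978 stood apart: 20 genes lay at least 4-fold outside the range of the other 11 colon libraries, among them Best1 at 505 CPM (counts scaled to a common library total; median of the others 1.12) and Txn1 at 4194 CPM (median 137). By the same measure 16 genes stood apart in the ileum of K3986, 11 in the ileum of P780 and 8 in the colon of K3986. High levels of B cell genes were seen in 6 libraries, each from a different rat (colon of K3989, P762 and K3977, ileum of K3986, K3990 and K3959), and the sum of the B and plasma cell genes ran from 66.6 to 1157 CPM in ileum and from 68.0 to 1197 CPM in colon. Values without rat K3978, or in the 6 rats without a library high in B cell genes, are given beside several of the Hox, goblet, immune, muscle, neuronal, fibroblast and adipocyte results.

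Of 12621 genes tested, 3953 (31.3%) were higher in colon and 3587 (28.4%) higher in ileum at a false discovery rate (FDR, the Benjamini-Hochberg adjusted p of the paired edgeR quasi-likelihood test) under 0.05, and 5081 did not pass. These shares are the background for the gene list counts over all 12 rats. In the 6 rats without a library high in B cell genes the background was lower, with 1594 higher in colon and 1703 in ileum of 12429 tested. Without rat K3978 it was 3779 and 3455 of 12685. A difference of more than 2-fold, tested against that size, was found for 630 genes in colon (4.99%) and 985 in ileum (7.8%). No overlap at all was seen for 1542 genes with every colon library above every ileum library (12.2%) and for 1514 with every ileum library above every colon library (12%). Differences below are log2 fold changes ± SE over 12 rats, colon against ileum, so that negative values are higher in ileum. Their median over all genes was 0.026 and their median size 0.49. Large differences were more numerous on the ileal side: 200 genes were called at over 16-fold higher in ileum against 94 in colon, and 101 against 44 at over 64-fold. The genes over 2-fold higher in ileum held 25.8% to 31.3% of all counts in an ileum library and 4.2% to 5.62% in a colon library, and those higher in colon held 15.2% to 18.9% of colon counts and 2.33% to 3.15% of ileum counts. Scaling by library totals alone, in place of TMM (edgeR's trimmed mean scaling), raised the share of calls that were higher in colon from 52.4% to 66.6% and moved the median of all genes to 0.22.

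**Figure D1:**
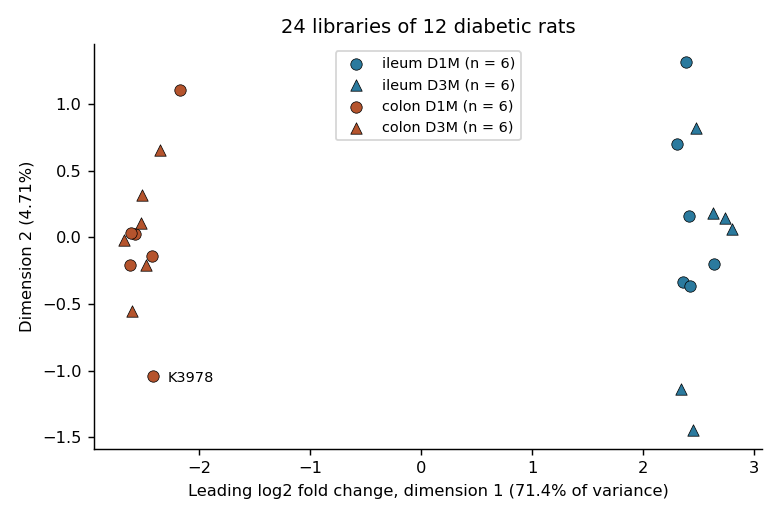
Multidimensional scaling of 24 libraries, with leading log2 fold changes on both axes and 1 point per library (circles D1M, triangles D3M, 6 each per tissue). Dimension 1, with 71.4% of the variance, separates the 12 ileum from the 12 colon libraries, D1M and D3M are mixed within each tissue, and the colon library of rat K3978 lies lowest among the colon libraries on dimension 2 (4.71%).

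Genes for the uptake of bile acids and cobalamin were mostly higher in ileum. Of 13 measured genes 12 were higher in ileum and 1 in colon, with a median of -4.12 against 0.026 over all genes. Fabp6 (chr10:29191623-29196563 in rn6), which binds bile acids inside the enterocyte, read 15922 to 33381 CPM (median 24143) in ileum and 1.84 to 18.97 CPM (median 6.68) in colon. No colon library came near the ileal range (log2 fold change -11.81 ± 0.51, FDR 2.42e-09). Slc10a2 (chr16:90324361-90345865 in rn6), the apical sodium-dependent bile acid transporter, read 24.3 to 65.7 CPM (median 41.9) in ileum and 0 to 0.84 CPM (median 0.141) in colon, a difference of -7.87 ± 0.49, FDR 6.85e-08. The basolateral exporter Slc51a was still measured in colon, at 109 to 357 CPM (median 183) against 2485 to 5549 CPM (median 3513) in ileum (-4.20 ± 0.16, FDR 4.59e-10). Its partner Slc51b differed less (-3.17 ± 0.15, FDR 2.31e-09). Fgf19, as the table names the rat's ileal hormone that restrains bile acid synthesis, read 1.29 to 65.2 CPM (median 7.75) and had no count in any colon library, which makes it at least 1284-fold higher in ileum when 3 counts over the colon group are taken as the floor. Abcc2, an apical conjugate exporter, ran from 36.9 to 149 CPM (median 79.2) in ileum and 0 to 0.924 CPM (median 0.427) in colon. Cubn, the cobalamin-intrinsic factor receptor, was lower in level but also separate, at 3.44 to 28.7 CPM (median 13.4) in ileum and 0 to 0.758 CPM (median 0.477) in colon (-4.49 ± 0.37, FDR 4.56e-07). The exception was Abcc3, a basolateral conjugate exporter, which was higher in colon in all 12 rats although the ranges overlapped (1.09 ± 0.18, FDR 2.05e-04).

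To set their regulatory letters side by side, the bases just before the start sites of 6 ileal and 2 colonic genes are shown, each as 250 bases ending at the base before the start in the RefSeq annotation of GRCr8. Capitals mark the motifs searched on both strands: AGATAA for GATA proteins, TTTATG and TTTATT for CDX, CAAAGT for the HNF4 core, and TATAAA, whose reverse can overlap the CDX letters. Lct (lactase, chr13:42376873-42377122, minus strand), Si (sucrase-isomaltase, chr2:159884903-159885152, minus strand), Slc10a2 (chr16:91087839-91088088, plus strand), Fabp6 (chr10:28569728-28569977, minus strand), Mep1a (a brush border peptidase, chr9:24971651-24971900, plus strand) and Cubn (chr17:81501695-81501944, minus strand) were higher in ileum, Mep1a by -1.43 ± 0.12 and still measured in colon at 423 to 744 CPM. Slc26a3 (the chloride-bicarbonate exchanger, chr6:53751165-53751414, plus strand) and Trpv6 (the apical calcium channel, chr4:71489668-71489917, minus strand) were higher in colon.
Lct: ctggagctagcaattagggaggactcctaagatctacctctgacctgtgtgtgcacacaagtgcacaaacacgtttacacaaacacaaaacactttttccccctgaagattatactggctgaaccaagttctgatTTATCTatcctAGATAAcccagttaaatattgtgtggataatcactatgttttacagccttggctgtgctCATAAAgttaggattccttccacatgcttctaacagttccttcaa
Si: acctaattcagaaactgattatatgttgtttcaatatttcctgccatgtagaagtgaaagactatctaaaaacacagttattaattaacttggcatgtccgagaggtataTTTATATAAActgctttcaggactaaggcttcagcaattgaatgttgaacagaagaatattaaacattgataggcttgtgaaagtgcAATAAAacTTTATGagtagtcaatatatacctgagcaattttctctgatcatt
Slc10a2: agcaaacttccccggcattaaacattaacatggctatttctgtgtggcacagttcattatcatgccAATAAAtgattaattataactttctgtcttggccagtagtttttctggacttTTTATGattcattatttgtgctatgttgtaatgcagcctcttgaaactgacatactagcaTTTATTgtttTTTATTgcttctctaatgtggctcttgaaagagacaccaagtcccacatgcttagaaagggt
Fabp6: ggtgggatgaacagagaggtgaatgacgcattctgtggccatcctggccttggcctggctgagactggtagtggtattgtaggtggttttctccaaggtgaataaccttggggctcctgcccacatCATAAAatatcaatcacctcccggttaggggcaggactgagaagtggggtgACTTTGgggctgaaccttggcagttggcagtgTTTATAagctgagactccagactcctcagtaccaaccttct
Mep1a: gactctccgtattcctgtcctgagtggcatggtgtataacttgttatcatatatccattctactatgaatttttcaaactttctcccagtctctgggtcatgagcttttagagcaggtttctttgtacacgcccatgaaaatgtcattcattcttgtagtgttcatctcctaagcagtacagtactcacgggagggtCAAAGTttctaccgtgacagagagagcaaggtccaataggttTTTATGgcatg
Cubn: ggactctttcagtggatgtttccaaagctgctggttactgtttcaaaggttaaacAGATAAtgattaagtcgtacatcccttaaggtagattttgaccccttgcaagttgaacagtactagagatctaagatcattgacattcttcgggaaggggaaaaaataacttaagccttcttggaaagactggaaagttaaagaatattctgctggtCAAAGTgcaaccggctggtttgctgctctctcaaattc
Slc26a3: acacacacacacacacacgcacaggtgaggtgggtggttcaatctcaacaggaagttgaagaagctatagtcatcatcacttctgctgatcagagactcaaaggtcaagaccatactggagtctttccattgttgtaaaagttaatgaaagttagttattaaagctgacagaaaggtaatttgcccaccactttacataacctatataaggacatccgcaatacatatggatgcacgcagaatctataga
Trpv6: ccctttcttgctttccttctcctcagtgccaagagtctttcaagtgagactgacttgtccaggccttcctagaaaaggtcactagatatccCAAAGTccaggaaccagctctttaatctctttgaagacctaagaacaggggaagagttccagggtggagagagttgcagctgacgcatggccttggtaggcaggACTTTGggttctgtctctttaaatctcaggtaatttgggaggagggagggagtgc
In Lct, AGATAA began 104 bases before the start and its reverse 115 bases before it, with the reverse of TTTATG at 45. Si held TTTATG at the same distance, 45, and the reverse of TTTATT at 53. Cubn and Mep1a both carried CAAAGT, at 38 and 53 bases. Fabp6 held the reverse of CAAAGT at 73, and Trpv6 held CAAAGT at 159 with its reverse at 55, so these letters stood on both sides of the comparison. The 250 bases of Slc26a3 held none of the letters searched. Of the genes over 2-fold, 687 of 985 ileal and 408 of 630 colonic genes matched a single promoter by symbol. CAAAGT was found in the 300 bases (250 before and 50 after the start) of 16.9% of the ileal and 10.3% of the colonic promoters, beside 14.8% of all 33469 promoters and 11.4% of those of tested genes. AGATAA was found in 9.17% and 6.62%, beside 11.6% of all promoters and 6.05% of those tested, and either CDX sequence in 19.7% and 16.2%, beside 29.7% and 16.1%. TATAAA was held by 10.2% and 9.8% (14.2% of all, 6.89% of tested). A match describes letters in these windows only.

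Genes for the digestion and uptake of sugar, peptide and amino acids followed. Of 14 sugar genes 13 were higher in ileum and 1 in colon (median -4.07), all 12 brush border peptidases were higher in ileum (median -6.42), and of 17 peptide and amino acid transporters 12 were higher in ileum, 4 in colon and 1 did not pass (median -2.47). Si read 539.6 to 4392 CPM (median 1686) in ileum and 0 to 0.268 CPM (median 0.0851) in colon, with a wide spread among ileum libraries (-13.10 ± 0.37, FDR 2.90e-11). Slc2a2, the basolateral glucose and fructose carrier, ran from 3.72 to 304 CPM (median 77.4) in ileum, the widest relative spread of the sugar genes named here, and had no colon count (at least 6258-fold higher in ileum). Lct was also without a colon count, at 1.24 to 23.04 CPM (median 8.30) in ileum (at least 587-fold). Slc2a5, the fructose carrier of the brush border, read 134 to 389 CPM (median 281) in ileum and 0.834 to 3.21 CPM (median 1.49) in colon, a difference of -7.31 ± 0.24, FDR 1.44e-10. The colon instead held the glucose carrier Slc2a1, at 11.2 to 21.5 CPM (median 15.7) in ileum and 197 to 329 CPM (median 235) in colon, the only sugar gene higher in colon (3.63 ± 0.12, FDR 8.52e-11).

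Slc3a1, the heavy subunit of the cystine and dibasic amino acid transporter, had the largest difference of its list, with 380.4 to 729 CPM (median 538) in ileum and at most 0.208 CPM in colon (-13.22 ± 0.38, FDR 3.90e-11). Slc15a1, the proton-coupled oligopeptide transporter, ran from 1139 to 2429 CPM (median 1506) in ileum and 0.102 to 0.742 CPM (median 0.358) in colon, a difference of -11.85 ± 0.27, FDR 5.33e-12. The neutral amino acid transporter Slc6a19 differed by less (-9.67 ± 0.26, FDR 1.77e-11), from a median of 2616 CPM in ileum and 2.67 CPM in colon. On the colonic side stood carriers for the cells' own use, Slc38a2 (1.35 ± 0.14), Slc1a5 (1.69 ± 0.22), Slc6a9 (1.90 ± 0.24) and Slc7a5 (0.48 ± 0.09), the last with overlapping ranges. Among peptidases, Naaladl1 read 5369 to 8262 CPM (median 6152) in ileum and 3.89 to 8.83 CPM (median 5.66) in colon (-9.90 ± 0.23, FDR 6.39e-12). Enpep (-8.86 ± 0.32) and Anpep (-8.77 ± 0.31), the glutamyl and alanyl aminopeptidases, differed by similar amounts.

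Of 26 measured genes of fat absorption and lipoprotein assembly 24 were higher in ileum (median -3.95) and 2 in colon. Mttp, which loads lipid onto apolipoprotein B, read 484 to 712 CPM (median 630.1) in ileum and 0 to 1.34 CPM (median 0.405) in colon, a difference of -9.89 ± 0.35, FDR 3.91e-10. Apob itself was held at 4.54 to 9.41 CPM (median 7.28) in colon against 1907 to 3966 CPM (median 2316) in ileum (-8.35 ± 0.17, FDR 2.29e-12). Apoa1 reached the highest level of the list, at 9082 to 25531 CPM (median 14667) in ileum, and varied among colon libraries, from 4.95 to 147 CPM (median 28.1), without reaching the ileal range (-9.64 ± 0.72, FDR 5.20e-07). Abcg8, which returns sterol to the lumen, had 11285 counts in ileum and 1 in colon, a ratio of 1.027e+04 (95% counting interval 1843 to 405700). Fabp1, a fatty acid binding protein of both tissues, was among the least different, with medians of 7729 CPM in ileum and 2358 CPM in colon (-1.36 ± 0.30, FDR 0.00176). Scarb1 (0.72 ± 0.19) and Abca1 (1.31 ± 0.19), both of the high-density lipoprotein route, were higher in colon with overlapping ranges. Of 20 genes of cholesterol synthesis and its control, 19 were higher in ileum, mostly by less than 2-fold (median -0.87). Hmgcs1 (-1.65 ± 0.29) and Fdps (-0.92 ± 0.09), enzymes of the path, were both higher in ileum.

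**Figure D2:**
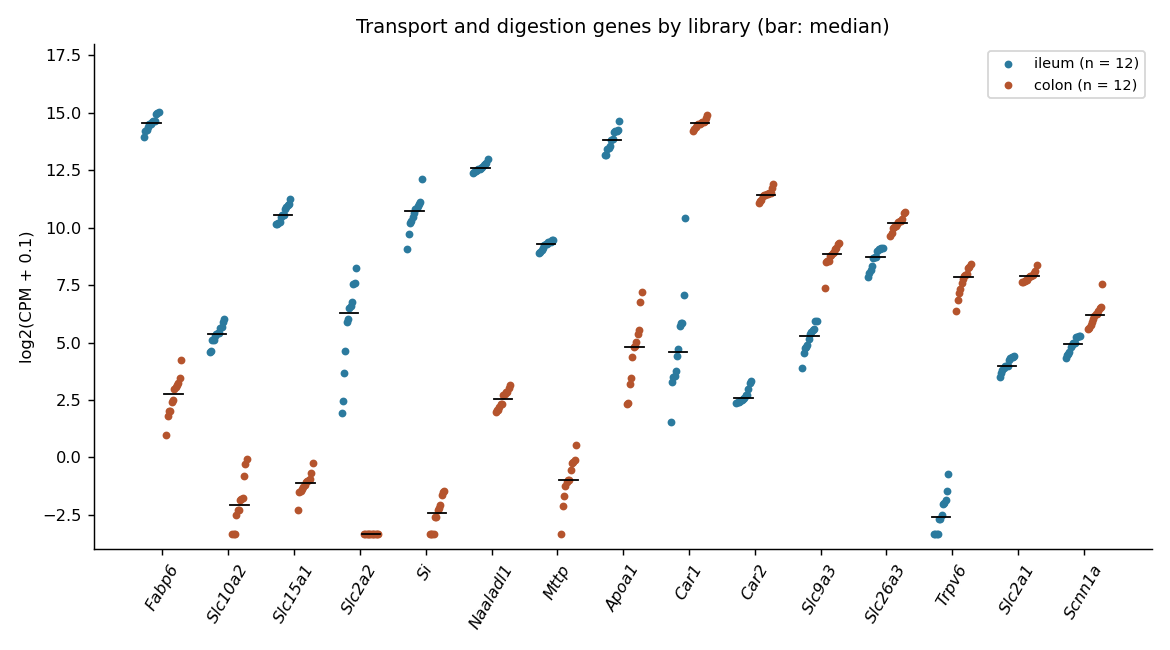
Level of 15 transport and digestion genes as log2(CPM + 0.1), 1 point per library (12 ileum, 12 colon) and a bar at each median. The 8 genes at left are higher in ileum and the 7 at right higher in colon, with no overlap between tissues for any of the 15, and Car1 has the widest ileal range of the colon genes (2.84 to 1392 CPM).

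Genes of electrolyte and water transport were shared out rather than shifted. Of 34 measured genes 13 were higher in colon, 15 in ileum and 6 did not pass, with a median of -0.11. Carbonic anhydrases led in colon: Car1 (chr2:88217188-88227479 in rn6) read 2.84 to 1392 CPM (median 23.8) in ileum and 19104 to 30804 CPM (median 23842) in colon, and its highest ileal value was that of D3M rat P762, far from the median (9.74 ± 1.14, FDR 2.07e-05). Car2 was tight in both tissues, at 5.14 to 9.87 CPM (median 5.84) in ileum and 2177 to 3812 CPM (median 2776) in colon, which gave a difference with a small error (8.66 ± 0.16, FDR 1.61e-12). Car4, bound to the apical membrane, was measured in every ileum library too, at 78.7 to 392 CPM (median 231) in ileum and 943 to 1888 CPM (median 1480.2) in colon (2.88 ± 0.18, FDR 4.83e-08). The sodium-proton exchanger Slc9a3 read 14.9 to 61.8 CPM (median 38.6) in ileum and 167 to 639 CPM (median 468) in colon, and Slc26a3, which pairs with it for the uptake of sodium chloride, 229.5 to 563 CPM (median 421) in ileum and 807 to 1651 CPM (median 1186) in colon. Both were separate between tissues (3.44 ± 0.27, FDR 5.05e-07 for Slc9a3 and 1.74 ± 0.15, FDR 7.41e-07 for Slc26a3). Genes tied to aldosterone and sodium uptake took both directions. Hsd11b2, which keeps glucocorticoids off the mineralocorticoid receptor (3.17 ± 0.12, FDR 4.55e-10), and Scnn1a, a subunit of the epithelial sodium channel (1.16 ± 0.23, FDR 0.00108), were higher in colon. Of related members of the list, added after their values were seen, the subunit Scnn1b was higher in colon (2.98 ± 0.38), the subunit Scnn1g did not pass (1.12 ± 0.48, FDR 0.0608), and the receptor Nr3c2 (-0.73 ± 0.26), the kinase Sgk1 (-2.04 ± 0.44) and the protease Prss8 (-0.79 ± 0.12) were higher in ileum. Guca2a, the luminal peptide guanylin, rose from a median of 3217 CPM in ileum to 9141 CPM in colon (1.46 ± 0.15, FDR 3.03e-06).

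The water channels tested were mostly ileal. Of 6 aquaporins tested 5 were higher in ileum and none in colon. The listed colon marker Aqp8 had no tested value, so these counts do not cover it. Aqp7, an aquaglyceroporin, read 314 to 579 CPM (median 413) in ileum and 0.47 to 17.4 CPM (median 2.11) in colon, a difference of -7.49 ± 0.67, FDR 2.32e-06, and Aqp4 differed by -5.35 ± 0.28. Aqp3 was the exception in its spread, at 190.1 to 342 CPM (median 292) in ileum and 4.55 to 396 CPM (median 13.4) in colon, where the library of rat K3978 held the highest value, above every ileum library (-4.14 ± 0.92, FDR 0.00227, and without that rat -4.73 ± 0.69, FDR 1.82e-04). Slc26a6, an anion exchanger of the same family as Slc26a3, went the other way (-3.56 ± 0.11, FDR 4.30e-11), from medians of 319.5 CPM in ileum and 29.7 CPM in colon.

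Trpv6, S100g and Calb1, genes of calcium entry and binding, were higher in colon. Trpv6 (chr4:70918632-70934295 in rn6) read 0 to 0.514 CPM (median 0.0675) in ileum and 84.1 to 344 CPM (median 229) in colon, a difference of 9.85 ± 0.30, FDR 7.51e-11. S100g, the small calcium-binding protein that ferries calcium through the enterocyte, ran from 7.02 to 54.2 CPM (median 21.8) in ileum and 134 to 2079.6 CPM (median 995) in colon (5.15 ± 0.56, FDR 1.15e-05). Colon libraries differed more among themselves in S100g than ileum libraries did, and the ranges did not meet. Vdr, the vitamin D receptor that drives both, did not pass (-0.01 ± 0.08, FDR 0.925), with medians of 401 CPM in ileum and 432 CPM in colon. Calb1, another calcium-binding protein, was low in both tissues and higher in colon (2.35 ± 0.39). Trpv6, S100g and Calb1 were the 3 colonic genes among 19 of metal and calcium transport, while 11 were higher in ileum, including the ferroxidase Heph (-1.81 ± 0.12), the iron carrier Slc11a2 (-1.16 ± 0.12) and the zinc and manganese exporters Slc30a1 (-1.88 ± 0.12) and Slc30a10 (-3.46 ± 0.42).

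Short-chain fatty acid genes were mostly colonic: 10 of 15 were higher in colon, 4 in ileum and 1 did not pass (median 1.01). Slc16a7 (3.47 ± 0.23), a monocarboxylate carrier, the receptor Ffar2 (2.52 ± 0.34) and the long-chain receptor Ffar4 (2.03 ± 0.18) were higher in colon. Slc5a12, the low-affinity lactate cotransporter, stood against its list, at 339 to 781 CPM (median 489) in ileum and 0 to 0.612 CPM (median 0.335) in colon (-10.29 ± 0.35, FDR 2.41e-10), and the receptor Ffar3 (-3.16 ± 0.67) and the exporter Slc16a3 (-1.44 ± 0.19) were also higher in ileum. Over the whole Slc superfamily 83 of 246 genes were higher in colon and 99 in ileum, beside 31.3% and 28.4% of all genes. Over 2-fold were 26 and 54, which makes 32.5% of the family, beside 12.8% of all genes. Genes of drug metabolism leaned to ileum (6 of 25 in colon, 13 in ileum, median -0.45), with Cyp3a18 (-6.57 ± 0.29) and the exporters Abcg2 (-2.35 ± 0.15) and Abcb1a (-1.91 ± 0.20) in ileum and Ugt8 (5.00 ± 0.17), Adh1 (3.73 ± 0.61) and Nqo1 (1.61 ± 0.20) in colon.

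Mitochondrial genes differed little but together. Of 34 genes of oxidative phosphorylation 30 were higher in colon, none in ileum and 4 did not pass (median 0.67), and over the complex I family Nduf 38 of 42 were higher in colon and none in ileum. Cox5a read 361 to 562 CPM (median 436) in ileum and 715 to 1191 CPM (median 895) in colon (1.03 ± 0.10, FDR 1.35e-06), whereas Atp5b did not pass (0.23 ± 0.10, FDR 0.0717). Under other scalings the median ran from 0.631 to 0.865, with 30 of the genes higher in colon under DESeq2's size factors and 33 under library totals alone, and none in ileum under either. Genes of fatty acid oxidation were divided, with 15 of 24 higher in colon and 5 in ileum (median 0.41). Acads, for short chains, was higher in colon (1.20 ± 0.08) and Acadm, for medium chains, in ileum (-1.46 ± 0.15), neither with overlap between tissues. Ribosomal protein genes were alike in direction, with 68 of 90 higher in colon and 5 in ileum (median 0.41).

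**Figure D3:**
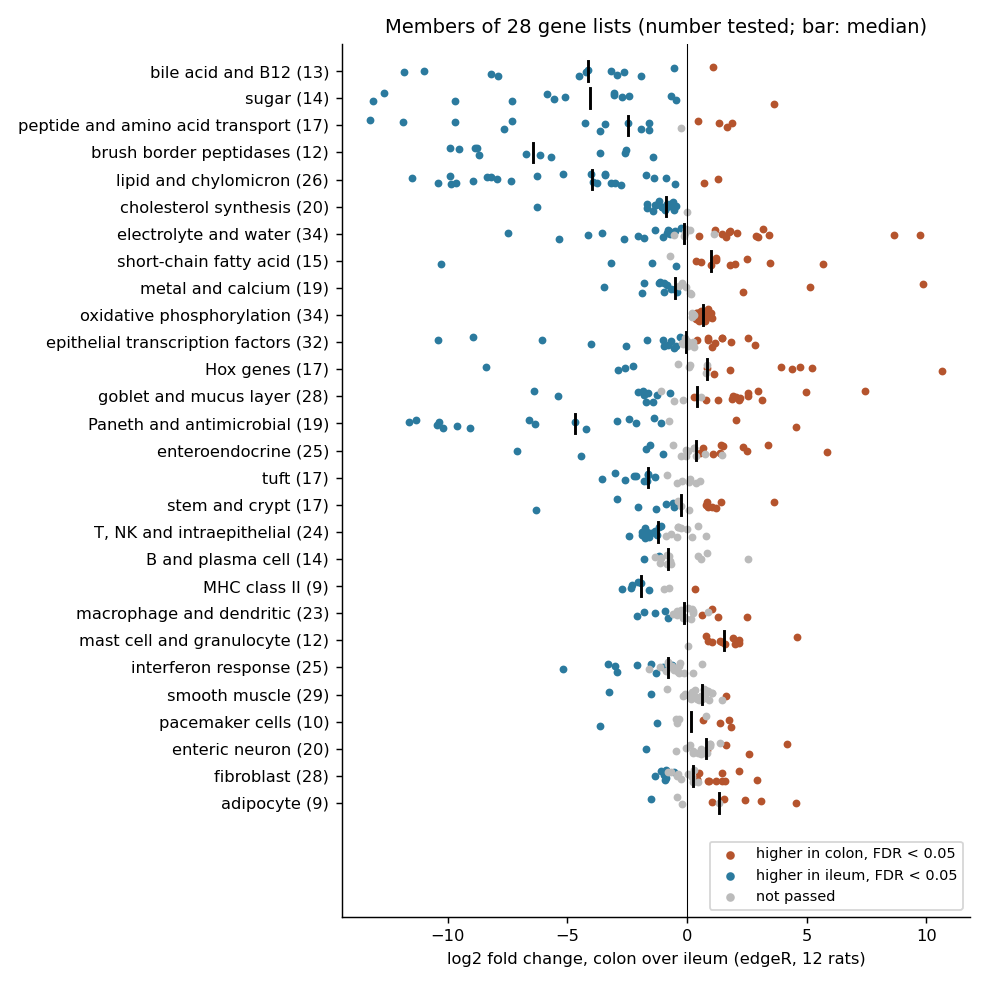
Fitted log2 difference between colon and ileum (horizontal axis, positive in colon, by edgeR over 12 rats) for every tested member of 28 gene lists, 1 point per gene, coloured by its call, with a bar at each list's median. Nutrient, Paneth and tuft cell lists lie to the left, mast cell, adipocyte and oxidative phosphorylation lists to the right, and members without a count in a tissue are drawn at fitted values that are not bounds.

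Epithelial transcription factors separated into near-absolute and graded differences. Of 32 measured factors 13 were higher in ileum, 10 in colon and 9 did not pass (median -0.04). Creb3l3, which turns on lipoprotein genes, read 437 to 965 CPM (median 506) in ileum and 0.084 to 0.941 CPM (median 0.526) in colon, a difference of -10.38 ± 0.31, FDR 6.17e-11. Gata5 was as restricted, at 95.6 to 177 CPM (median 119) in ileum and 0 to 0.528 CPM (median 0.168) in colon (-8.93 ± 0.36, FDR 1.47e-09). Its relative Gata6 was measured in both tissues and only about 2-fold apart (-0.96 ± 0.13, FDR 3.96e-05), with medians of 22.1 CPM in ileum and 10.9 CPM in colon. The same held within the HNF4 pair: Hnf4g differed by -4.02 ± 0.33, from medians of 20.01 CPM in ileum and 1.14 CPM in colon, and Hnf4a by -0.80 ± 0.10, from medians of 947 CPM in ileum and 479 CPM in colon. Maf (-6.04 ± 0.38, FDR 6.82e-08), Prdm1 (-2.54 ± 0.16) and the oxysterol receptor Nr1h3 (-1.65 ± 0.10) were higher in ileum without overlap. Nr1h4, the bile acid receptor whose targets include Fabp6 and Slc51a, was higher in ileum by only -0.54 ± 0.11, with overlapping ranges and medians of 269.6 CPM in ileum and 189 CPM in colon.

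Pparg, the fatty acid receptor, was the most colonic of the factors (2.83 ± 0.18, FDR 4.47e-08), at 17.4 to 43.95 CPM (median 30.2) in ileum and 137 to 261 CPM (median 173) in colon, followed by its coactivator Ppargc1a (2.56 ± 0.28). The pioneer factors Foxa2 (1.47 ± 0.13) and Foxa3 (1.49 ± 0.19) were higher in colon and Foxa1 did not pass (0.30 ± 0.22, FDR 0.266). Cdx2, which keeps intestinal identity along the whole gut, was higher in colon in 12 of 12 rats by 0.43 ± 0.09, and Cdx1, in 11 of 12, by 0.89 ± 0.14. Klf5 (0.26 ± 0.14, FDR 0.124), Elf3 (-0.17 ± 0.10, FDR 0.158) and Tcf7l2 (0.05 ± 0.12, FDR 0.722), general factors of the epithelium, did not pass.

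Hox genes split by cluster. Of 17 tested 8 were higher in colon, 4 in ileum and 5 did not pass (median 0.83). All 5 tested Hoxd genes were higher in colon and all 4 tested Hoxc genes higher in ileum, and the 8 Hoxa genes in the table held 1 count in all 24 libraries together. Hoxd10 (chr3:61613774-61617367 in rn6) had no count in ileum and read 7.86 to 18.3 CPM (median 12.2) in colon, at least 888-fold higher. Hoxd9 was the only Hoxd gene with counts in each of the 12 ileum libraries, at 0.222 to 1.09 CPM (median 0.425) in ileum and 7.93 to 21.5 CPM (median 12.7) in colon (4.40 ± 0.31, FDR 1.22e-07). Hoxd3 (4.72 ± 0.45), Hoxd4 (5.24 ± 0.49) and Hoxd8 (3.92 ± 0.48) differed by similar amounts. Hoxc8 was the reverse, at 7.24 to 16.97 CPM (median 9.03) in ileum and 0 to 0.14 CPM (median 0) in colon, with 4 counts in colon in all (-8.39 ± 0.45, FDR 9.99e-09), and Hoxc4 (-2.27 ± 0.32), Hoxc5 (-2.87 ± 0.53) and Hoxc6 (-2.60 ± 0.25) were less far apart. Below the filter, Hoxd11 and Hoxd13 had 221 and 101 counts in colon and 0 in ileum, and Hoxc9 had 134 counts in ileum and 4 in colon.

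The Hoxb genes were measured in both tissues, and several of their calls depended on 1 library. In the colon of rat K3978 Hoxb8 was at 0.421 CPM, against at least 11.1 CPM in the other 11, Hoxb6 at 3.44 against at least 38.5, and Hoxb7 at 10.6 against at least 87.4. With that rat Hoxb4, Hoxb5 and Hoxb8 were higher in colon and Hoxb6 (0.83 ± 0.52, FDR 0.189) and Hoxb7 (0.79 ± 0.45, FDR 0.147) did not pass. Without it Hoxb6 (1.32 ± 0.20, FDR 1.35e-04) and Hoxb7 (1.25 ± 0.17, FDR 7.12e-05) were higher in colon too, Hoxb8 differed by 2.33 ± 0.27, FDR 1.47e-05, and 10 Hox genes in place of 8 were higher in colon. Hoxb2, Hoxb3 and Hoxb9 did not pass either way. In the 6 rats without a library high in B cell genes, which include K3978, 5 Hox genes were higher in colon, the median of the 17 was -0.13, and Hoxb4, Hoxb5 and Hoxb8 did not pass (smallest FDR 0.429).

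**Figure D4:**
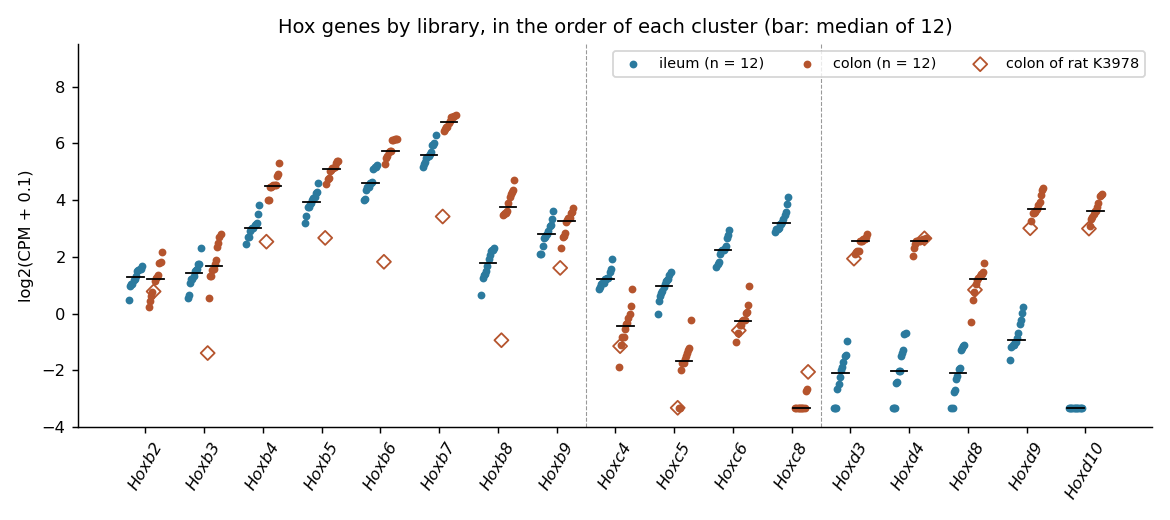
Level of 17 Hox genes as log2(CPM + 0.1), 1 point per library (12 ileum, 12 colon) with a bar at each median and dashed lines between clusters, the colon library of rat K3978 drawn as an open diamond. By median the Hoxc genes lie higher in ileum and the Hoxd genes higher in colon, and the diamond falls below the other colon points from Hoxb3 to Hoxb9.

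Positional factors of the wall beneath the epithelium were mixed, with 4 of 20 higher in colon, 6 in ileum and 10 not passing (median -0.30). Tbx3 (-3.59 ± 0.25, FDR 1.79e-07) and Tbx2 (-1.79 ± 0.24), T-box repressors, were higher in ileum. Foxp2 (2.13 ± 0.26, FDR 1.91e-05) and Foxp1 (0.92 ± 0.14), forkhead repressors, were higher in colon without overlap. Osr2 did not pass (-0.72 ± 0.49, FDR 0.220), and it too was low in the colon of rat K3978 only, at 6.81 CPM against at least 127.0 in the others.

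Paneth cell and antimicrobial genes were ileal in 16 of 19 (median -4.66), with 2 higher in colon. The alpha-defensin Defa24 read 749 to 4171 CPM (median 2447) in ileum and 0 to 4.37 CPM (median 0.402) in colon, a difference of -11.61 ± 0.93, FDR 9.23e-07, and Defal1 and RatNP-3b, of the same family, differed by -11.33 ± 0.84 and -10.34 ± 0.63. Defensin genes are near-identical copies, so how reads were divided among them is uncertain. Reg3g, a lectin against bacteria that enterocytes also make, ran from 1702 to 13788 CPM (median 5583) in ileum and 0.562 to 2233 CPM (median 426) in colon and was lowest in the colon of rat K3978 (-4.66 ± 1.20, FDR 0.00576, without that rat -4.08 ± 0.85, FDR 0.00204). Lyz2, a lysozyme of macrophages as well as Paneth cells, was 1 of the less separated genes (-2.93 ± 0.41, FDR 8.83e-05). Lcn2 (2.06 ± 0.34), which binds bacterial siderophores, and Nupr1 (4.54 ± 0.26), a stress-responsive factor, were higher in colon.

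Goblet cell and mucus genes took both directions, with 14 of 28 higher in colon, 10 in ileum and 4 not passing (median 0.44). The mucin Muc2 had no tested value and is not among the 28. In the 6 rats without a library high in B cell genes 10 were higher in colon and 8 in ileum (median 0.016). Lypd8, which keeps flagellated bacteria off the colonic surface, read 3706 to 8295 CPM (median 5251) in ileum and 15347 to 30421 CPM (median 23833) in colon (2.06 ± 0.17, FDR 4.76e-07). Creb3l1 (3.12 ± 0.18, FDR 1.86e-08), a factor of secretory cells, the kallikrein Klk1 (5.00 ± 0.35) and B3gnt6 (2.97 ± 0.46), which builds core O-glycans, were higher in colon. Tff1 had 2 counts in ileum and 889 in colon, a ratio of 488.4 (95% counting interval 134.8 to 4039). Opposite to it, Tff3 read 587 to 1191 CPM (median 779.9) in ileum and 146 to 323 CPM (median 230.1) in colon (-1.85 ± 0.14, FDR 1.95e-07), and Clca4 (-6.37 ± 0.53, FDR 9.67e-07), a chloride channel regulator, fell from a median of 10015 CPM in ileum to 179.6 CPM in colon. St6galnac1, which adds sialic acid to mucin, was of similar size (-5.40 ± 0.48, FDR 2.06e-06). Clca1 (-2.06 ± 0.26) and Fcgbp (-1.77 ± 0.14), secreted with mucin, were higher in ileum in 12 of 12 rats although the ranges overlapped.

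Hormone-producing cells also differed by product. Of 25 enteroendocrine genes 10 were higher in colon, 5 in ileum and 10 did not pass (median 0.37). Neurotensin, Nts, read 178 to 320.4 CPM (median 256) in ileum and 0.365 to 6.40 CPM (median 1.49) in colon (-7.10 ± 0.48, FDR 2.23e-07) and secretin, Sct, 66.7 to 151 CPM (median 103) in ileum and 3.43 to 9.27 CPM (median 5.31) in colon (-4.42 ± 0.11, FDR 1.13e-11). Pyy, a satiety hormone, was higher in this ileum than in proximal colon in all 12 rats, with overlap (-1.52 ± 0.19, FDR 2.43e-05). In colon stood the serotonin genes Tph1, the synthesising enzyme (2.34 ± 0.22, FDR 1.87e-06), and Slc18a1, the vesicular carrier (2.50 ± 0.20), the granule proteins Chga (1.10 ± 0.14) and Chgb (1.44 ± 0.16), and ghrelin, Ghrl, at 0.0775 to 1.40 CPM (median 0.409) in ileum and 21.1 to 65.6 CPM (median 28.01) in colon (5.84 ± 0.45, FDR 4.65e-07). Tuft cell genes were ileal in 10 of 17 with none in colon (median -1.61), led by the taste signalling genes Gnat3 (-3.55 ± 0.42) and Trpm5 (-3.01 ± 0.40) and the lineage factor Pou2f3 (-2.59 ± 0.32).

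Crypt genes divided evenly, with 7 of 17 higher in each tissue and 3 not passing (median -0.26). Olfm4, a secreted crypt protein, read 111 to 477 CPM (median 276) in ileum and 1.19 to 7.76 CPM (median 2.23) in colon (-6.29 ± 0.43, FDR 2.65e-07), and Ascl2, a stem cell factor, differed by -2.05 ± 0.41. Prom1 was far higher in colon, at 45.05 to 89.5 CPM (median 56.8) in ileum and 618 to 849 CPM (median 709.9) in colon (3.64 ± 0.17, FDR 2.31e-09), and Sox9 (1.43 ± 0.14), Cd44 (1.23 ± 0.14) and Ephb3 (1.07 ± 0.12) were higher there by smaller amounts. Of 22 cell cycle genes 14 were higher in ileum and 1 in colon (median -0.47), none by as much as 2-fold, and under scaling by library totals alone 6 were higher in ileum. Junction and brush border genes were ileal in 16 of 25, with 1 higher in colon (median -0.64). Of 11 claudins tested 5 were higher in ileum, 1 in colon and 5 did not pass. Cldn4 had a median of 1047 CPM in ileum and 171 CPM in colon (-2.58 ± 0.21, FDR 4.65e-07). The colonic claudin was Cldn8, which seals the colon to sodium, with medians of 0.792 CPM in ileum and 34.9 CPM in colon (5.18 ± 0.37, FDR 1.79e-07). Krt8, a keratin of all intestinal epithelium, did not pass (-0.22 ± 0.13, FDR 0.175) and Epcam differed by -0.75 ± 0.11.

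Immune genes differed in lineage. None of 24 T cell, NK cell and intraepithelial lymphocyte genes was higher in colon and 14 were higher in ileum (median -1.20). Gzma, a granule protease, read 13.6 to 85.8 CPM (median 51.5) in ileum and 6.46 to 25.6 CPM (median 10.6) in colon (-2.40 ± 0.27, FDR 9.93e-06), with overlap. Cd3e, part of the T cell receptor complex, read 5.14 to 35.5 CPM (median 18.4) in ileum and 1.54 to 28.6 CPM (median 3.99) in colon, higher in ileum in 9 of 12 rats (-1.87 ± 0.59, FDR 0.0169). In the 6 rats without a library high in B cell genes, 8 of these genes were higher in ileum (median -1.36). Ccl25, the chemokine that brings T cells to the small intestine, was near-absolute, at 803 to 1265 CPM (median 931) in ileum and 0.157 to 4.50 CPM (median 1.13) in colon (-9.11 ± 0.42, FDR 6.69e-09), and its receptor Ccr9 differed by -3.60 ± 0.34. Ccl20 (-2.74 ± 0.41), the chemokine of follicle epithelium, was ileal and Il18 (2.33 ± 0.17, FDR 1.81e-07), an epithelial cytokine, and Pigr (1.43 ± 0.13), which carries IgA to the lumen, were colonic, among 35 chemokine and cytokine genes with 7 in colon and 14 in ileum (median -0.51).

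Of 14 B and plasma cell genes 2 were higher in ileum and none in colon, and 12 did not pass. In the 6 rats without a library high in B cell genes 2 were higher in colon and 1 in ileum. Jchain, which links IgA, was called in ileum over all 12 rats, at 17.2 to 459 CPM (median 123) in ileum and 12.99 to 69.8 CPM (median 35.1) in colon (-1.80 ± 0.37, FDR 0.00136), and did not pass in those 6 rats (-1.89 ± 0.64, FDR 0.0770). Spib, a factor of B and M cells, had a spread within tissue that was wider than the difference (-1.10 ± 0.85, FDR 0.286). MHC class II genes were ileal in 6 of 9, with 1 in colon (median -1.91), and 6 were also higher in ileum in the 6 rats without a library high in B cell genes. Cd74, the invariant chain, read 3725 to 8497 CPM (median 5460.3) in ileum and 625 to 3286 CPM (median 958) in colon (-2.29 ± 0.30, FDR 3.21e-05), and RT1-Bb and RT1-Ba, class II chains, differed by -2.73 ± 0.34 and -2.35 ± 0.26. RT1 genes are close copies, and how reads were divided among them is uncertain.

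Mast cell and granulocyte genes were the immune group higher in colon: 11 of 12 passed and none was ileal (median 1.55). In the 6 rats without a library high in B cell genes 5 passed (median 1.26). Mcpt2, a mucosal mast cell protease, read 15.4 to 157 CPM (median 74.5) in ileum and 117 to 637 CPM (median 309.9) in colon (2.19 ± 0.32, FDR 1.03e-04), and Mcpt4, another mast cell protease, 0 to 0.962 CPM (median 0.194) in ileum and 1.21 to 12.9 CPM (median 4.61) in colon (4.59 ± 0.40, FDR 6.36e-07). Fcer1a, the IgE receptor, and S100a9, of neutrophils, were low in both tissues and higher in colon (2.02 ± 0.48 and 2.19 ± 0.24). Macrophage and dendritic genes were divided, 4 of 23 higher in colon and 5 in ileum (median -0.11), or 1 and 2 in those 6 rats: Cd14 (2.52 ± 0.12, FDR 3.51e-09) and Adgre1 (1.31 ± 0.30) of macrophages in colon, Clec9a (-1.78 ± 0.49) and Xcr1 (-1.35 ± 0.31) of cross-presenting dendritic cells in ileum, while the macrophage complement gene C1qb did not pass (0.06 ± 0.23, FDR 0.841). Interferon response genes were ileal in 10 of 25 with none in colon (median -0.80), led by Ifit1 at 78.5 to 864 CPM (median 329) in ileum and 0.952 to 111 CPM (median 19.2) in colon (-5.17 ± 0.70, FDR 6.30e-05). In the 6 rats without a library high in B cell genes 2 of the 25 were higher in ileum (median -0.874). Over all rats the summed level ran from 859 to 8143 CPM in ileum and from 417 to 3378 CPM in colon.

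Smooth muscle genes mostly did not pass. Of 29 smooth muscle genes 1 was higher in colon, 2 in ileum and 26 did not pass, with a median of 0.64. Without rat K3978 the median was 0.25 and the counts were again 1 and 2. Their summed level ran from 3112 to 14647 CPM in ileum and from 8761 to 28147 CPM in colon and was higher in colon in 10 of 12 rats. Actg2, the gamma actin of visceral muscle, read 264 to 2647 CPM (median 1040.4) in ileum and 1789 to 6879.6 CPM (median 3468) in colon, higher in colon in 11 of 12 rats (1.45 ± 0.59, FDR 0.0504, and without rat K3978 0.95 ± 0.43, FDR 0.0784). Myh11, smooth muscle myosin, was also above ileum in 11 of 12 rats without passing (1.04 ± 0.49, FDR 0.0876, and without rat K3978 0.64 ± 0.43, FDR 0.226), and Cnn1, calponin, was the gene that passed in colon (1.61 ± 0.55, FDR 0.0249). Ldb3, a Z-disc protein, went against them without overlap, at 47.7 to 99.7 CPM (median 74.1) in ileum and 4.18 to 11.6 CPM (median 6.30) in colon (-3.27 ± 0.24, FDR 2.86e-07). Fitted alone and without the flow cell term, the 6 D3M rats gave 19 of the 29 smooth muscle genes higher in colon and the 6 D1M rats 0. Over all genes those fits called 4204 of 12619 and 3441 of 12686 higher in colon. Yet the difference between the groups was not called for any of the 29 (smallest interaction FDR 0.595, none at an unadjusted p under 0.05). How much muscle a piece of wall held was not measured.

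Of 10 genes listed with the interstitial cells of Cajal, the pacemakers of the gut, 4 were higher in colon and 2 in ileum, beside 59.7% of all genes called in either direction. Ano1, their calcium-activated chloride channel, read 5.26 to 16.7 CPM (median 12.1) in ileum and 28.1 to 53.6 CPM (median 41.6) in colon (1.84 ± 0.16, FDR 6.65e-07), Kit, their growth factor receptor, which mast cells also carry, 8.85 to 18.2 CPM (median 15.3) in ileum and 23.1 to 53.3 CPM (median 33.6) in colon (1.38 ± 0.11, FDR 4.37e-07), and the calcium channel Cacna1h differed by 1.75 ± 0.28. Edn3, a ligand of enteric neural crest cells, was higher in ileum (-3.64 ± 0.17, FDR 2.81e-09). Neuronal genes passed in 4 of 20 in colon and 1 in ileum (median 0.78), and none of 6 glial genes passed (median 0.48). Without rat K3978 the neuronal median was 0.39, with 3 genes in colon and 1 in ileum, and the glial median 0.29, and in the 6 rats without a library high in B cell genes 1 neuronal gene was higher in colon. Syn1, a synaptic vesicle protein, stood out at 0.111 to 2.57 CPM (median 1.01) in ileum and 11.2 to 42.8 CPM (median 22.02) in colon (4.20 ± 0.56, FDR 5.30e-05), Vip, the relaxing transmitter, did not pass (-0.04 ± 0.24, FDR 0.884), and Tac1, substance P, was higher in ileum (-1.72 ± 0.36, FDR 0.00121). The 6 D3M rats fitted alone, without the flow cell term, gave 12 neuronal genes higher in colon and the 6 D1M rats 4. Over all genes those fits called 4204 of 12619 and 3441 of 12686 higher in colon. The smallest interaction FDR of a neuronal gene was 0.663.

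Of 28 fibroblast genes 11 were higher in colon and 7 in ileum (median 0.24), of 28 extracellular matrix genes 7 and 6 (median 0.07) and of 19 endothelial genes 3 and 6 (median -0.30), beside 31.3% and 28.4% of all genes. In the 6 rats without a library high in B cell genes the fibroblast genes gave 4 and 3 (median -0.013). Over all genes in those rats 1594 and 1703 of 12429 were called. Among the fibroblast genes named by the rule, Rspo1, which strengthens Wnt signals (1.48 ± 0.39, FDR 0.00519), and the growth factor Fgf10 (2.93 ± 0.47) were higher in colon, and the growth factors Bmp4 (-0.89 ± 0.18) and Wnt5b (-0.94 ± 0.20) in ileum. Rspo1 and Wnt5b did not pass in those 6 rats (FDR 0.390 and 0.0954). Postn, a matrix protein, read 5.37 to 52.7 CPM (median 25.6) in ileum and 70.2 to 184 CPM (median 124) in colon (2.17 ± 0.37, FDR 3.48e-04), and the collagens Col3a1 (0.11 ± 0.16, FDR 0.566) and Col6a2 (0.06 ± 0.15, FDR 0.766) did not pass. Adipocyte genes were higher in colon in 5 of 9 and in ileum in 1 (median 1.35), and without rat K3978 in 4 and 2 (median 0.80). Their defining members were uneven: Fabp4, which capillaries also make, read 16.7 to 52.96 CPM (median 21.4) in ileum and 359.9 to 1270.3 CPM (median 882) in colon (4.57 ± 0.32, FDR 1.95e-07), while Adipoq, made by fat cells, ran from 0.165 to 9.51 CPM (median 1.18) in ileum and 2.47 to 79.5 CPM (median 7.11) in colon (2.41 ± 0.89, FDR 0.0362, and without rat K3978 1.74 ± 0.78, FDR 0.0799). Rbp7, a retinol binding protein of capillaries and fat, differed by 4.70 ± 0.37. Their part in the other values was not tested. Of 14 immediate early and stress genes 3 were higher in colon and 4 in ileum, beside 31.3% and 28.4% of all genes. Fos (-1.95 ± 0.41, FDR 0.00171) and Fosb (-2.86 ± 0.50) were higher in ileum and Nr4a1 (1.19 ± 0.18) in colon.

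Whether the regional difference itself varied with the stage of diabetes was asked by the interaction of tissue with group. Between D3M and D1M 0 of 12621 genes were called (0%) at FDR under 0.05 by edgeR (smallest FDR 0.412). At an unadjusted p under 0.05 there were 1070, limma's voom called 0, and DESeq2 on the same model called 74, of which 70 had a lower and 4 a higher difference in D3M. The smallest p belonged to Tnfrsf21, a death receptor, with an interaction of -0.72 ± 0.12 (FDR 0.412). Fgl2 (-0.72 ± 0.13) and Riok3 (-0.84 ± 0.15) came next in the same direction, and Cmah (1.33 ± 0.26), which makes a sialic acid, led the other, each at the same FDR. None of these 4 passed. Over the brush border peptidases the median interaction was -0.54 and over the interferon genes 1.19, beside 5 of 12 and 8 of 25 at an unadjusted p under 0.05, with smallest FDRs of 0.412 and 0.451.

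**Figure D5:**
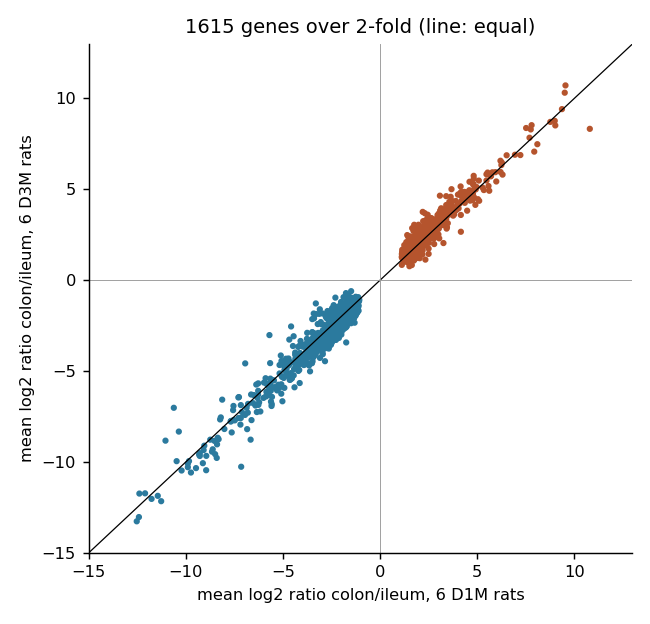
Mean log2 ratio of colon over ileum in 6 D1M rats (horizontal axis) and 6 D3M rats (vertical axis) for the 1615 genes called over 2-fold, 1 point per gene, orange higher in colon and blue higher in ileum, with the line of equality. The points follow the line across the range. The genes were chosen in a fit of these same rats, which favours genes alike in both groups. Closeness to the line was therefore partly built in and does not show that the groups agree. In the interaction test no gene differed between D1M and D3M at FDR under 0.05 by edgeR.

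In 4 of the 6 ND rats, chosen because neither of their libraries held high levels of genes of the other tissue, and whose libraries took no part in choosing these genes, 626 of the 630 genes over 2-fold higher in colon were higher in colon in each rat, and 967 of 981 measured ileal genes were higher in ileum in each, beside 29.4% and 26.3% of all genes. That choice of rats used tissue genes, so the agreement in direction was partly built in, and direction in the ND rats left out was not counted. The median log2 fold change of the genes over 2-fold was 2.04 in ND and 2.19 in diabetic rats on the colonic side and -1.90 and -2.25 on the ileal side. The interaction of tissue with diabetes called 0 of 12753 genes (0%) by edgeR (smallest FDR 0.669), with 566 at an unadjusted p under 0.05 and 6 called by DESeq2, and edgeR also called 0 with all 6 ND rats (smallest FDR 0.463). Pcsk5, a proprotein convertase, had the smallest p (-0.91 ± 0.17, FDR 0.669), with a log2 fold change of -1.09 in ND and -1.98 in diabetic rats. Lpl, lipoprotein lipase (1.86 ± 0.43), and Rbp7 (2.48 ± 0.57) had larger colonic excess in diabetic rats, and Car4 a smaller one (-1.18 ± 0.26), none of them passing. Age and diabetes cannot be told apart in this comparison, since ND rats were 70 days old.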

How the data were processed

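The authors extracted RNA from flash-frozen gut, made stranded mRNA libraries, sequenced them in 3 flow cells, aligned reads to rn6 with STAR and counted them per gene in SeqMonk. Versions and the strand setting of the counting are not given in the sources used here. The deposited values are raw read counts per gene, so genes that overlap or have close copies are uncertain. Samples were grouped by title and characteristics and paired by rat ID. Genes were kept by filterByExpr (minimum count 10) by tissue, which left 12621 of 24773. The main test was edgeR 4.0.16 (R 4.3.3) with TMM scaling and quasi-likelihood F tests on rat, flow cell and tissue, with Benjamini-Hochberg adjustment, and its threshold test for 2-fold differences. CPM are counts divided by the TMM-scaled total in units of 1000000, not corrected for gene length. The fits were tested on simulated counts. Alternatives included DESeq2 1.42.0, limma 3.58.1 (voom), other scalings and filters, and leaving out rats.

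The numbers pair the samples since both libraries came from the same animal. Deviations of a rat's 2 libraries correlated by -0.23 to 0.41, above 0.1 in 3 of 12 rats. In 3 rats the colon correlated more with its own ileum than with that of any other rat of the group. The pairing therefore rests on the rat IDs in the titles. No 2 libraries of a group agreed within sampling noise (smallest chi-square per degree of freedom 19.5). Members, gene lists and tests were chosen with earlier results of these data known. Genes were named by fixed rules: the 15 largest differences each way at 20 CPM or more, the 4 most extreme passing and 2 highest members of each list, all members of lists of up to 8, all Hox genes, listed transcription factors and tissue markers, the 5 smallest p each way for interactions, and the 5 smallest passing differences at 100 CPM or more. Some genes under these rules are not reported here. Intervals and floors (3 counts, 95% level) cover counting error only. Promoters come from RefSeq for GRCr8.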

Additional observations from a re-analysis of the deposited data

Results flagged for a closer look

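Sulf2, an extracellular sulfatase, had a log2 ratio of colon over ileum of -1.57 in D1M rat K3986, apart from the other 5 D1M rats at -1.32 to -1.22. The gap took 0.72 of the whole range, above Dixon's critical value for 6 samples. The rule was applied to D1M and to D3M for every gene named for their interaction, up to 5 each way. Chance flags about 1 in 20 such groups, so 1 flag in that search can arise by chance. The genes had been chosen by a small interaction p, which favours tight groups.

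Among ND libraries outside the comparisons, the colon library of rat K4028 held Fabp6 at 8312.9 CPM and that of rat K4040 held it at 19.96 CPM, where the colon libraries used here held 1.9 to 19.59 CPM. The ileum library of rat K4040 held Car1 at 3810.2 CPM, where the ileum libraries used here held 2.61 to 1457.1 CPM. These 2 rats were left out of the ND comparison. Levels in this paragraph are on a scale set over all 36 libraries.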

How the results depend on the processing

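Counts higher in colon, higher in ileum, over 2-fold in colon and over 2-fold in ileum were 3953, 3587, 630 and 985. They fell to 1573, 1820, 299 and 492 in the 3 rats with both libraries in the same flow cell, and to 1594, 1703, 329 and 502 in the 6 rats without a library high in B cell genes, both with fewer samples. Leaving out each rat in turn gave 3322 to 3998, 3011 to 3514, 550 to 656 and 830 to 973. Without rats as a replicate block, that is without the pairing, they were 4521, 4049, 756 and 1093, within 1.5 times, and both interactions stayed at 0 calls. The other settings also stayed within 1.5 times. For D3M against D1M, DESeq2 called 74, the fit without the flow cell term 1, and leaving out each rat 0 to 1 (1 without K3987). For diabetic against ND rats, DESeq2 called 6 and leaving out each rat 0 to 1 (1 without K3989). The cause was not tested. Over 373 named genes and 28 settings, 9875 values kept direction and side of the threshold, 427 lost it, 102 gained it and 4 reversed. With library totals alone Cdk9 (0.065), Csnk1g2 (0.041), Lamp1 (0.045) and Supt5h (0.042) reversed, by construction of that scaling. Smooth muscle genes higher in colon were 1 in all rats, 6 under library totals alone, 0 in D1M rats alone and 19 in D3M rats alone, the last 2 also without the flow cell term. Over all genes those settings called 3953, 5304, 3441 and 4204 higher in colon. Depth limits low genes: 12152 of 24773 genes were not tested.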

Other observations

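Beyond the groups above, several of the largest differences were in genes of other roles. Bpifb2, a member of the lipid-binding BPI family, had no count in any ileum library and 13317 in colon, at least 4877-fold higher. Fa2h, which makes hydroxylated sphingolipids, read 93.4 to 189 CPM in colon and at most 0.287 CPM in ileum (log2 fold change 10.21 ± 0.33). Abca12, a lipid exporter best known from skin, had 3 counts in ileum and 6925 in colon, a ratio of 2536 (95% counting interval 867.5 to 12300). Plet1 (7.81 ± 0.65), a surface protein, Lpo (9.54 ± 0.68), lactoperoxidase, and Cyp8b1 (8.97 ± 0.47), the sterol hydroxylase of cholic acid synthesis, were likewise colonic. In ileum Hnmt, which methylates histamine, had 6532 counts and none in colon, at least 1982-fold higher.

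The smallest differences that passed, at 100 CPM or more in both tissues, were those of Cdk9 (-0.13 ± 0.05), Lamp1 (-0.15 ± 0.06), Atp6ap1 (0.15 ± 0.06), Csnk1g2 (-0.16 ± 0.06) and Supt5h (-0.16 ± 0.06). All of them lay within the shift of 0.22 that library totals alone gave to the median of all genes.

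Smaller marker lists were also counted, beside 31.3% of all genes higher in colon and 28.4% in ileum. Of 4 keratin and surface epithelium genes 2 were higher in ileum, and of 7 follicle epithelium genes 1. Of 6 striated muscle genes 2 were higher in colon, as were 2 of 3 pancreatic and 1 of 3 red cell genes. The summed pancreatic genes had medians of 66.1 CPM in ileum and 141 CPM in colon. Their sum was higher in colon in 12 of 12 rats. Zinc finger genes named Zfp were over 2-fold in 4.41% of 204, beside 12.8% of all genes. Genes opposite in sign to the call made up 1.9% (rat K3980) to 10% (rat P762) of the 7540 called genes.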
